A study of Mus musculus with 8 samples.

Results

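The cornea stays clear because its stroma is kept thin and partly dehydrated. Ions are moved out of the stroma by the endothelium on its inner face, water follows them, and the epithelium on its outer face adds a barrier and a chloride and water pathway of its own. The 9 genes described here belong to that machinery. They encode the sodium bicarbonate cotransporter Slc4a4, the transporter Slc4a11 of the same family, the sodium pump subunit Atp1b1 and the lactate transporter Slc16a1. They also encode the sodium-potassium-chloride cotransporter Slc12a2, the carbonic anhydrase Car2 and the water channels Aqp1, Aqp3 and Aqp5. They were chosen by name for their known roles in corneal hydration, out of 54532 genes listed, and all 9 were among the 25402 genes that could be tested.

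Naive corneas, that is corneas without suture or treatment, of BALB/cN and C57BL/6N mice, both of them unmodified inbred strains, were used for sequencing of total RNA, with 4 corneas of each strain. For the RNA sequencing the study used males of both strains, and the labels give no age. The labels do not say whether each of the 4 corneas came from a separate mouse, so the p-values measure the spread between these samples. The question put to the 9 genes is whether their transcripts differ between BALB/cN and C57BL/6N corneas. Expression is given as the deposited regularized log value (rlog), a log2 scale that is normalized for library size and pulls each gene towards its own mean. A difference on this scale therefore understates the fold change, above all for genes with few reads. Read numbers per gene were estimated from the rlog values, and the libraries held between 29.68 and 41.15 M estimated reads. They are given as normalized reads, that is divided by the size factor of the library, and are approximate above 5000 reads.

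Before any comparison of the strains, 3 corneas stood apart. BALB/cN replicate 2 and C57BL/6N replicates 3 and 4 held far fewer transcripts of the stroma. Most genes listed for the endothelium beneath it were lower too, and both layers together are called the inner cornea here. Averaged over 13 genes of stromal keratocytes, the rlog value was 12.03 in BALB/cN replicate 2 and between 13.54 and 13.56 in the other 3 BALB/cN corneas. It was 11.11 and 11.19 in C57BL/6N replicates 3 and 4, against 13.69 and 13.67 in replicates 1 and 2. For Kera, the keratocan core protein of the stroma, the high C57BL/6N corneas held 100 times the normalized reads of the low ones. The mean of the 7 genes of the corneal endothelium list moved the same way but less. It was 11.86 to 12.12 in the other 5 corneas and 11.43, 11.18 and 11.09 in these 3. Foxc1 of that list went the other way, at 12.76 and 12.80 in the low C57BL/6N corneas against 12.63 and 12.61 in the high ones. In BALB/cN replicate 2 Foxc1 was 12.53, against 12.37 to 12.48 in the other BALB/cN corneas. Alcam was nearly level, at 12.79 to 13.06 over all corneas. The mean rlog of the 11 corneal epithelium genes stayed between 16.26 and 16.51 in all 8 corneas. Krt12, the keratin of corneal epithelium, was 1.17 times as high in the low corneas as in the high ones of either strain. In bulk RNA of this kind, fewer cells of a type and less RNA per cell cannot be told apart. The grouping into high and low inner share was read from these transcripts and is not a group of the study.

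Other tissues were present in small and uneven amounts. The lens list summed to between 563 and 9238 normalized reads in BALB/cN corneas and to between 328 and 772 in C57BL/6N corneas, and was high in BALB/cN replicates 1 and 4, as were the transcripts of pigment cells of the iris and ciliary body. Most defining markers of red blood cells and of lacrimal gland were at or near 0. The hemoglobin gene Hba-a1 and the gland genes Lpo, Pip, Dcpp1 and Dcpp2 had at most 3 reads in any cornea, while Alas2 of the red cell list had 49.7 to 64.5 normalized reads, Hbb-bt of that list up to 16.2, and Bhlha15 of the gland list 18.9 to 64.9.

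None of the 9 transport genes passed an adjusted p-value of 0.01 between the strains when the 8 corneas were compared as they are. Missing this threshold with 4 against 4 corneas does not show that the strains are alike. In the same fit with limma, 1458 genes (5.74%) passed an adjusted p-value of 0.01, of which 718 (2.83%) were higher and 740 (2.91%) lower in BALB/cN. After the p-values were recalibrated to an empirical null distribution with a standard deviation of 1.67, 0 genes passed, with 1730 at an unadjusted p under 0.05, so the calls of the other genes named here also rest on the uncorrected distribution. The values of the strains overlapped for each of the 9 genes, as they did for most genes, since 18.3% of all genes tested showed no overlap. Differences ranged from -0.25 for Car2 to 0.26 for Slc4a4, and their median was -0.03 beside 0.01 over all genes tested. An exact two-sided permutation test gave p-values between 0.0571 for Slc12a2 and 1 for Slc4a11, where 0.0286 is the smallest value that 4 against 4 corneas allow. The smallest unadjusted p of limma was 0.014 for Slc12a2, and the next was 0.0891 for Aqp5. With voom on the estimated reads Slc12a2 had an adjusted p of 0.123.

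**Figure D1:**
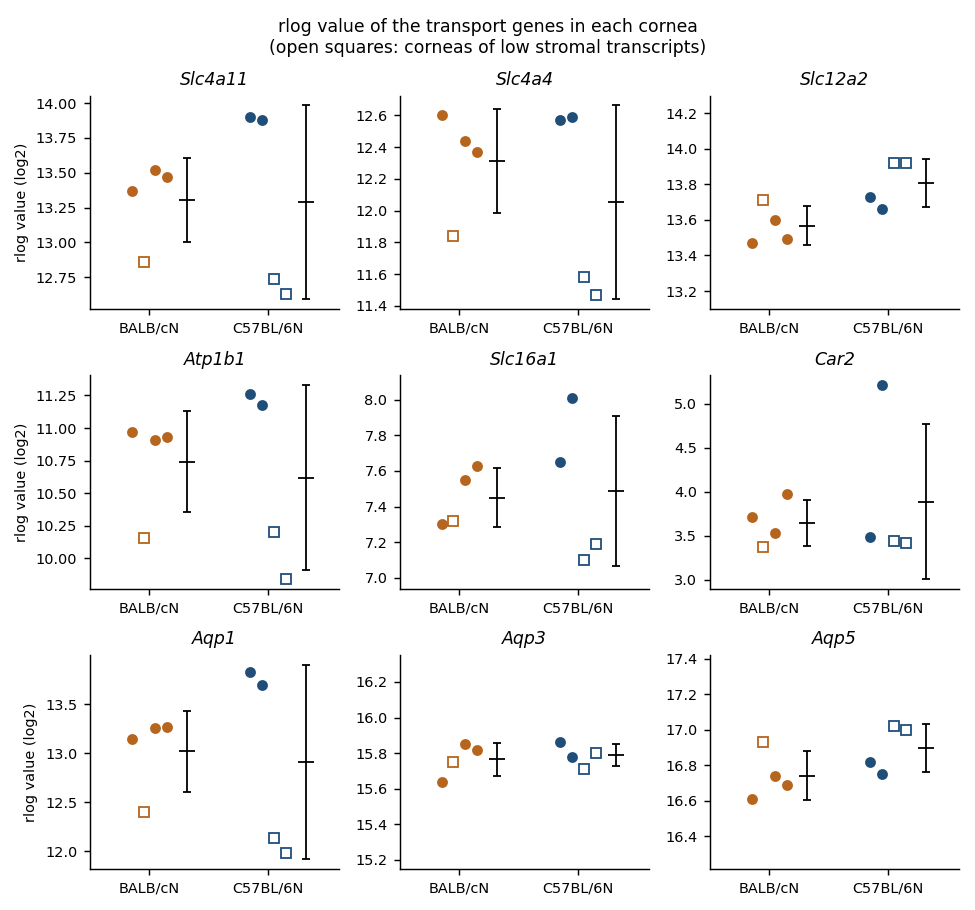
rlog value (log2, vertical axes) of each transport gene in the 4 BALB/cN and 4 C57BL/6N corneas, with 1 point per cornea and black bars for the mean ± SD of each strain. Open squares are the 3 corneas with few stromal transcripts. They lie at the bottom for Slc4a11, Slc4a4, Atp1b1 and Aqp1 and at the top of their strain for Slc12a2 and Aqp5.

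The 9 genes spanned a wide range of abundance. Per kilobase of exon, the epithelial water channels were the most abundant, with 44866 ± 6154 normalized reads (SD, n = 8 corneas) for Aqp5 and 30755 ± 2047 for Aqp3, and no Aqp3 value reached an Aqp5 value. Aqp1 followed with 3556 ± 2011 per kilobase, then Slc4a11 with 2184 ± 940 and Slc12a2 with 1221 ± 192. Aqp1 and Slc4a11 overlapped in their ranges although Aqp1 was the higher in each of the 8 corneas, and Slc4a11 exceeded Slc12a2 in 6 of 8. Atp1b1 (584 ± 254) and Slc4a4 (462 ± 174) also overlapped. Slc16a1 was low, with 41.9 ± 15.7 per kilobase, and Car2 was lowest, with 10.3 ± 22, a mean carried by 1 cornea. Exon lengths were taken as the union of all annotated exons, so the order of neighbouring genes also depends on which isoforms the cornea uses.

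**Figure D2:**
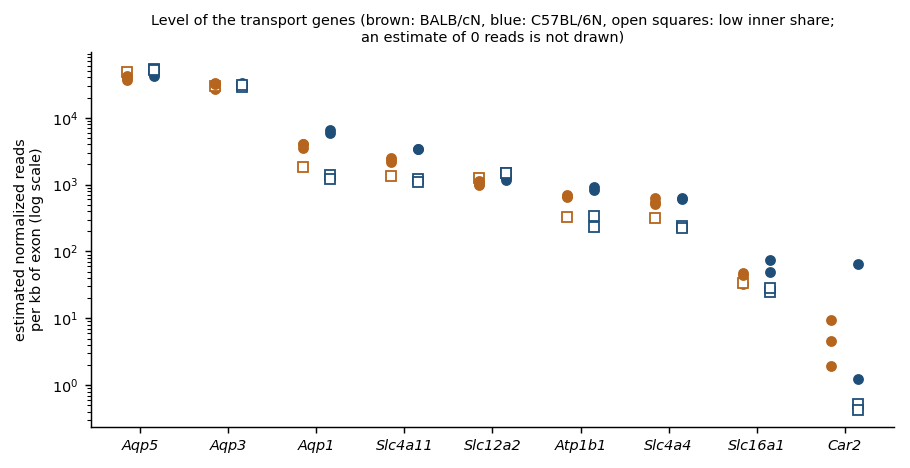
Estimated normalized reads per kilobase of exon (vertical axis, log scale) for the 9 transport genes in order of their mean, with 1 point per cornea, brown for BALB/cN and blue for C57BL/6N. Open squares are the 3 corneas of low inner share, and the estimate of 0 reads for Car2 in BALB/cN replicate 2 is not drawn. Aqp5 and Aqp3 lie at 27041 or more in all corneas, while Car2 stays below 10 in all but 1.

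A pair of the water channels followed the layers of the cornea differently, and the 250 bases before their RefSeq start sites are printed as a description. No tie between these letters and the expression was tested. Sequences are from RefSeq on GRCm38.p6, 5′ to 3′ on the strand of the gene, with matches to the TATA box (TATAAA) and the GC box (GGGCGG) on either strand in capitals. The first window is chr6:55336049-55336298 on the plus strand and the second chr4:41098184-41098433 on the minus strand, and neither overlaps an annotated exon. The first window ends ahead of the GENCODE start of Aqp1 at 55336432, and the bases between were not searched.
Aqp1: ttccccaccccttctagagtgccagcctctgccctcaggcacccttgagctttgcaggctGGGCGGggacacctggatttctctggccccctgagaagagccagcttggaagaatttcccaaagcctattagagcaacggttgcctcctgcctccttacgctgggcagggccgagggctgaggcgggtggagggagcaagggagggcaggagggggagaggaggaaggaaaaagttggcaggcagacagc
Aqp3: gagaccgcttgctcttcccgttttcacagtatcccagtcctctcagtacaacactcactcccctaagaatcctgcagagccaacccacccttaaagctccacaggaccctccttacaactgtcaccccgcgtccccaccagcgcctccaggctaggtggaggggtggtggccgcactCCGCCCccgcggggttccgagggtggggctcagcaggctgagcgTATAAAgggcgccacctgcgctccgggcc
The Aqp3 window holds a TATA box that begins 29 bases before the start site and 1 GC box, while the Aqp1 window holds 1 GC box and no match to these TATA letters. Among 32851 windows of the same length in the RefSeq table, 12.4% hold the TATA box and 32.7% the GC box. Matches are descriptions of the letters and not evidence of binding. In these corneas the rlog value of Aqp1 ranged from 11.98 to 13.83 and that of Aqp3 from 15.64 to 15.86.

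Aqp1, the water channel of the corneal endothelium and of keratocytes (ENSMUSG00000004655, chromosome 6 from 55336432 to 55348555, GRCm38), varied most of the abundant genes. Its rlog values were 13.14, 12.40, 13.26 and 13.27 in BALB/cN replicates 1 to 4 and 13.83, 13.70, 12.13 and 11.98 in C57BL/6N replicates 1 to 4. The 3 lowest values were those of the 3 corneas of low inner share, and the 2 highest were the other C57BL/6N corneas. In normalized reads the BALB/cN mean was 8803 ± 2761 (SD, n = 4 corneas), and the C57BL/6N mean was 9883 ± 7532. Within C57BL/6N, the corneas of high inner share held 4.82 times the reads of those of low share, and within BALB/cN 2.14 times. The strain difference over all 8 corneas was 0.11 (95% interval -0.85 to 1.08, limma adjusted p = 0.907).

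Slc4a11, a transporter of the endothelial membrane whose loss causes hereditary endothelial dystrophy in people (ENSMUSG00000074796, chromosome 2 from 130684113 to 130697519), had nearly the same pattern. In BALB/cN its rlog values were 13.37, 12.86, 13.52 and 13.47, and in C57BL/6N they were 13.90, 13.88, 12.74 and 12.63. Again the corneas of low inner share were the lowest and the other C57BL/6N corneas the highest, and every high-share BALB/cN value lay between. The ratio of high to low inner share was 3.02 within C57BL/6N and 1.74 within BALB/cN. Over all corneas the strains differed by 0.02 (95% interval -0.67 to 0.70, limma adjusted p = 0.983).

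Slc4a4, the electrogenic sodium bicarbonate cotransporter that loads bicarbonate into endothelial cells (ENSMUSG00000060961, chromosome 5 from 88886818 to 89239653), had rlog values of 12.60, 11.84, 12.44 and 12.37 in BALB/cN and 12.57, 12.59, 11.58 and 11.47 in C57BL/6N. The corneas of low inner share were again lowest, and the 5 others of both strains lay between 12.37 and 12.60. Here the strain difference was 0.26 (95% interval -0.37 to 0.88, limma adjusted p = 0.625), and the within-strain ratio of high to low share was 2.66 in C57BL/6N and 1.79 in BALB/cN.

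Atp1b1 encodes the beta subunit that carries the sodium pump to the membrane (ENSMUSG00000026576, chromosome 1 from 164437109 to 164458355). Its rlog values were 10.97, 10.16, 10.91 and 10.93 in BALB/cN and 11.26, 11.18, 10.20 and 9.84 in C57BL/6N, once more lowest in the 3 corneas of low inner share. High-share corneas held 3.08 times the reads of low-share corneas in C57BL/6N and 2.09 times in BALB/cN. The strain difference was 0.12 (95% interval -0.61 to 0.85, limma adjusted p = 0.860). The gene shares 575 exon bases with Nme7 on the opposite strand, a gene with a mean of 550 normalized reads. The libraries were strand-specific, but the strand setting of the read counting is not given in the sources used here.

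Slc16a1, which carries lactate out of cells together with protons (ENSMUSG00000032902, chromosome 3 from 104638668 to 104658462), was a low transcript with a weaker form of this pattern. Values were 7.30, 7.32, 7.55 and 7.63 in BALB/cN and 7.65, 8.01, 7.10 and 7.19 in C57BL/6N. The low-share C57BL/6N corneas were lowest, but BALB/cN replicate 2 was level with BALB/cN replicate 1. The strain difference was -0.04 (95% interval -0.47 to 0.39, limma adjusted p = 0.932).

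Slc12a2 and Aqp5 ran the other way. Slc12a2, the cotransporter that loads chloride into secreting epithelia (ENSMUSG00000024597), had rlog values of 13.47, 13.71, 13.60 and 13.49 in BALB/cN and 13.73, 13.66, 13.92 and 13.92 in C57BL/6N. In each strain the corneas of low inner share were the highest, with 1.23 times the reads of the high-share corneas in C57BL/6N and 1.19 times in BALB/cN. It had the smallest adjusted p of the 9 genes, with a strain difference of -0.24 (95% interval -0.41 to -0.06, limma adjusted p = 0.095), and so missed the threshold. Aqp5, the water channel of the apical epithelium (ENSMUSG00000044217, chromosome 15 from 99590782 to 99594829), had values of 16.61, 16.93, 16.74 and 16.69 in BALB/cN and 16.82, 16.75, 17.02 and 17.00 in C57BL/6N. Its low-share corneas were also highest in each strain, by 1.23 times in C57BL/6N and 1.25 times in BALB/cN, where Krt12 was higher by 1.17 times in both. The strain difference of Aqp5 was -0.16 (95% interval -0.34 to 0.03, limma adjusted p = 0.294).

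Aqp3, the glycerol and water channel of epithelial membranes (ENSMUSG00000028435, chromosome 4 from 41092722 to 41098183), varied least. Values were 15.64, 15.75, 15.85 and 15.82 in BALB/cN and 15.86, 15.78, 15.71 and 15.80 in C57BL/6N, with the strains and both kinds of cornea intermixed. The strain difference was -0.03 with a 95% interval of -0.15 to 0.10 (limma adjusted p = 0.812), the narrowest interval of the 9 genes.

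Car2, the cytosolic carbonic anhydrase that supplies bicarbonate (ENSMUSG00000027562, chromosome 3 from 14886273 to 14900770), was close to the detection limit except in 1 cornea. It had 11.1, 0, 4.70 and 23.3 normalized reads in BALB/cN and 3.04, 155, 1.25 and 1.04 in C57BL/6N. The high value belonged to C57BL/6N replicate 2, and the mean of C57BL/6N of 40.2 ± 76.8 (SD, n = 4) rests on it. In that cornea Kif5a, a kinesin of neurons, had 778 normalized reads against 49.9 to 81.5 elsewhere. Its part in the Car2 value was not tested, and an estimate of 0 reads allows up to 3. The strain difference was -0.25 (95% interval -1.08 to 0.59, limma adjusted p = 0.737) and turned to 0.20 without that cornea.

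The tie of the members to the inner cornea was measured with the mean of the stromal list as a covariate beside strain. Per log2 unit of the stromal list, Aqp1 rose by 0.65 (95% interval 0.58 to 0.72), Atp1b1 by 0.48 (0.40 to 0.56), Slc4a11 by 0.46 (0.40 to 0.51), Slc4a4 by 0.42 (0.36 to 0.48) and Slc16a1 by 0.24 (0.12 to 0.36). Slc12a2 had a slope of -0.10 (-0.14 to -0.06) and Aqp5 one of -0.11 (-0.15 to -0.07). The slope of Aqp3 was 0.02, with an interval of -0.03 to 0.08 that holds 0. That of Car2 was 0.34 (0.02 to 0.65), with most of its reads in 1 cornea. All slopes are less than 1, so these genes varied less than the stromal list itself. On that list 3 corneas lay between 11.11 and 12.03 and the others between 13.54 and 13.69. Each slope is therefore mainly a contrast of these clusters, and a straight line between them was not tested. On the endothelial list the slopes were larger, 1.77 (1.63 to 1.91) for Aqp1, 1.32 (1.13 to 1.52) for Atp1b1, 1.25 (1.11 to 1.39) for Slc4a11 and 1.13 (0.97 to 1.29) for Slc4a4. That list moved less in part through Foxc1, which went the other way, and Alcam, which was nearly level. As a description over the 8 corneas, which share these 3 low libraries, deviations from the strain means correlated with those of the stromal list at Pearson's r of 0.99 for Slc4a11, Slc4a4 and Aqp1, 0.98 for Atp1b1, 0.86 for Slc16a1, 0.35 for Aqp3 and -0.92 for both Slc12a2 and Aqp5.

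**Figure D3:**
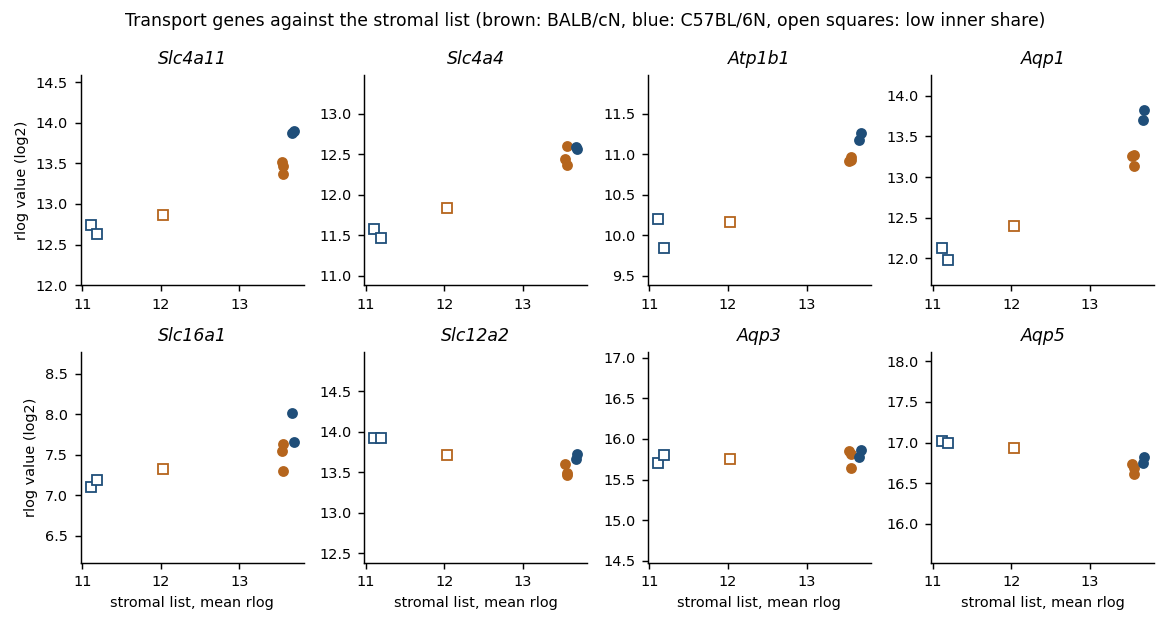
rlog value of 8 transport genes (log2, vertical axes of equal span) against the average rlog of the stromal keratocytes list (horizontal axes), with 1 point per cornea, brown for BALB/cN and blue for C57BL/6N. Open squares are the 3 corneas of low inner share. Slc4a11, Slc4a4, Atp1b1 and Aqp1 climb with the list, Slc12a2 and Aqp5 decline slightly with slopes of -0.10 and -0.11, and Aqp3 is level.

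With the stromal list as covariate, Slc4a11 and Aqp1 were both lower in BALB/cN. Slc4a11 differed by -0.33 (standard error 0.0536, 95% interval -0.45 to -0.21, limma adjusted p = 0.00181) and Aqp1 by -0.38 (standard error 0.0679, 95% interval -0.53 to -0.22, limma adjusted p = 0.00348). This fit called 2284 genes (8.99% of those tested, 4.56% lower in BALB/cN), beside 2 of the 9 members (22.2%). The other 7 members were not called. Car2 had the largest difference of the 9, -0.50 (95% interval -1.18 to 0.18, limma adjusted p = 0.344), and it rests on C57BL/6N replicate 2. Atp1b1 differed by -0.24 (limma adjusted p = 0.0763), Slc12a2 by -0.16 (0.0233), Slc16a1 by -0.22 (0.276) and Slc4a4 by -0.06, with a 95% interval of -0.19 to 0.07.

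The same 2 genes were called when the 3 corneas of low inner share were left out. In the remaining 3 BALB/cN corneas Slc4a11 had 10758, 12341 and 11785 normalized reads, and in the remaining 2 C57BL/6N corneas 17311 and 17075. Aqp1 had 9405, 10494 and 10574 against 17311 and 15428. The C57BL/6N values were higher, by 1.48 times for Slc4a11 and 1.61 times for Aqp1 on average. Strain values did not overlap for these 2 genes, nor for Atp1b1, Slc16a1, Slc12a2 and Aqp5. The share of all genes without overlap was not counted for 3 against 2 corneas. On the rlog scale the differences were -0.44 for Slc4a11 (limma adjusted p = 0.00588) and -0.53 for Aqp1 (limma adjusted p = 0.00493), among 852 calls (3.35% of genes, 1.74% lower in BALB/cN). Atp1b1 followed with -0.28 (limma adjusted p = 0.0257), while Slc4a4 gave -0.11 with a 95% interval of -0.29 to 0.06. Car2 gave -0.61, with a 95% interval of -1.75 to 0.52 (limma adjusted p = 0.488).

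**Figure D4:**
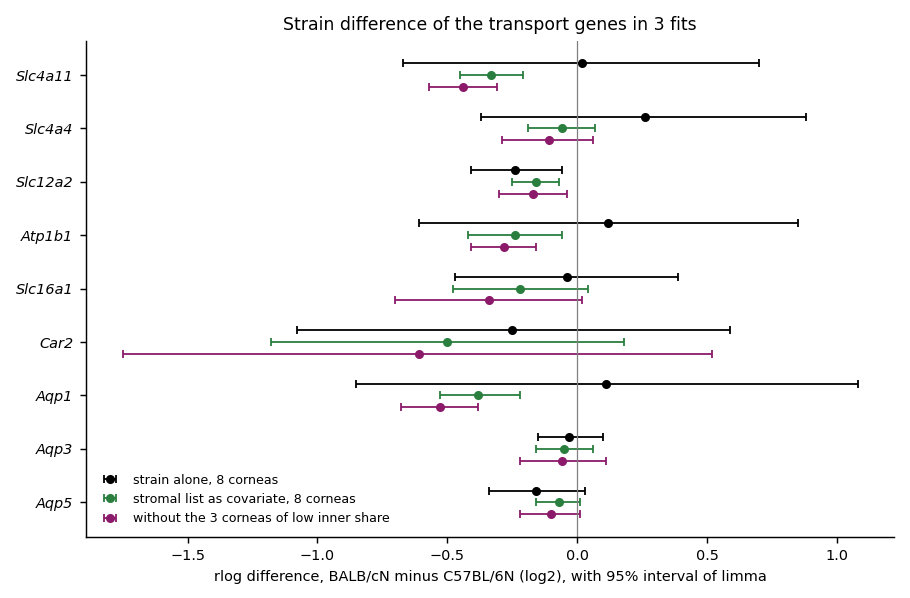
Difference of the rlog value between BALB/cN and C57BL/6N (log2, horizontal axis; negative means lower in BALB/cN) with the 95% interval from limma for the 9 transport genes in 3 fits. Black is strain alone over 8 corneas, green adds the stromal list as covariate and purple leaves out the 3 corneas of low inner share. The black intervals of Slc4a11 and Aqp1 span 0, while the green and purple ones lie below it.

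These calls have limits that lie in the corneas themselves. In the same 5 corneas the stromal and endothelial lists were also lower in BALB/cN. The stromal list without Col3a1, a collagen that differs between the strains by itself, summed to 0.726 of the C57BL/6N reads. Its median difference was -0.34, beside 0.00 over all genes, with 11 of 12 genes below 0. Of these, 4 (Kera, Dcn, Col1a1 and Col6a2) were called, where 1.74% of all genes were called lower. For the endothelial list the ratio was 0.88, with 6 of 7 genes below 0 and a median of -0.19. Of its genes 0 were called by limma and 5 had an unadjusted p under 0.05. The shares of all genes below 0 or at that p in this fit were not counted. For the epithelial list the ratio was 1.01. The lens list summed to 9.26 times and the list of pigment cells to 8.99 times the C57BL/6N reads, with 0 genes called in either. BALB/cN replicates 1 and 4, the corneas high in these lists, are both in this comparison. The part of lens and iris tissue in the calls among these 5 corneas was not tested. With the endothelial list as covariate, among 9.67% of genes called, neither gene was called, at -0.19 (limma adjusted p = 0.0187) for Slc4a11 and -0.19 (0.0232) for Aqp1, whereas Slc12a2 was, at -0.19 (limma adjusted p = 0.00896). With Col3a1 taken out of the stromal list, Slc4a11 stayed called at -0.25 (limma adjusted p = 0.00783) and Aqp1 did not at -0.27 (0.0208). Leaving out C57BL/6N replicate 1 or 2, the only C57BL/6N corneas of high inner share, ended both calls of the covariate fit, with limma adjusted p-values of 0.0207 and 0.0206 for Slc4a11 and 0.0372 and 0.0243 for Aqp1. Without replicate 3 of that strain Aqp1 also lost its call (limma adjusted p = 0.0111). Without the 3 corneas of low inner share, leaving out any 1 of the remaining 5 ended the call of Aqp1, with limma adjusted p-values of 0.0279, 0.012 and 0.0249 without BALB/cN replicates 1, 3 and 4 and 0.0941 and 0.072 without C57BL/6N replicates 1 and 2. The call of Slc4a11 remained without BALB/cN replicate 3 (limma adjusted p = 0.0076) and was lost without each of the other 4, with adjusted p-values from 0.0203 to 0.114. Both differences stayed below 0 in each of these fits.

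Genes of the same pathways beyond the 9 members were followed in 7 lists with 76 genes, of which 67 could be tested. Of these, 6 passed the threshold between the strains, 1 higher and 5 lower in BALB/cN, a share of 8.96% beside 5.74% of all genes. The median difference of the 67 genes was 0.07, against 0.01 over all genes tested. Slopes of the 6 genes on the stromal list ran from -0.10 to 0.04. Markers of conjunctiva, the neighbouring epithelium, moved with the strains too. The list of 6 genes summed to between 523803 and 773092 normalized reads in BALB/cN and between 886615 and 1119202 in C57BL/6N, nearly all of them from the mucin Muc4. The keratins Krt13 (mean 1562 against 15967 normalized reads, rlog difference -2.51, limma adjusted p = 6.95e-07), Krt4 (-1.17, 0.000879) and Krt19 (-0.97, 0.000338) and Muc4 (-0.48, 0.00631) were lower in BALB/cN. The goblet cell mucin Muc5ac had 29.1 to 523 reads in BALB/cN and at most 4.06 in C57BL/6N and was not called (limma adjusted p = 0.0225), nor was Krt8 (0.40, 0.0111). The part of conjunctival tissue in the differences of these 6 genes was not tested.

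In the bicarbonate and proton transport list, 1 of 11 genes tested was called. Slc4a7, an electroneutral sodium bicarbonate cotransporter of the same family as Slc4a4 and Slc4a11, had 280, 174, 225 and 251 normalized reads in BALB/cN and 1274, 1140, 1312 and 1333 in C57BL/6N. The strains were separated completely, by 5.44 times in mean reads, with an rlog difference of -1.72 (standard error 0.0946, limma adjusted p = 3.66e-06).

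Of 13 sodium pump genes tested, 1 was lower and 1 higher in BALB/cN. Atp1b3, an alternative beta subunit to Atp1b1, had between 4604 and 5431 normalized reads in BALB/cN and between 7660 and 8866 in C57BL/6N (rlog difference -0.56, limma adjusted p = 0.000162). Fxyd3, a small protein that modulates the pump, was 1.63 times higher in BALB/cN (0.53, limma adjusted p = 0.000183), a call lost with median centring (0.45, 0.0124). For comparison, Atp1b1 itself ranged from 723 to 2808 normalized reads over the same corneas.

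Among the carbonic anhydrases 1 of 13 tested genes was called, the mitochondrial Car5b, which was 1.78 times higher in C57BL/6N (rlog difference -0.62, limma adjusted p = 0.000684). Its call was lost without the 3 corneas of low inner share (-0.51, limma adjusted p = 0.0117) and without the 2 corneas of high lens transcripts (-0.56, 0.0248). The calls of all 6 pathway genes were lost after recalibration to the empirical null, with adjusted p-values from 0.201 to 0.446. Car3, an abundant cytosolic form, followed the inner share with a slope of 0.69. It was not called between the strains (0.07, limma adjusted p = 0.948). Car3 was lower in BALB/cN with the stromal list as covariate (-0.45, limma adjusted p = 0.0022) and without the 3 corneas (-0.57, 0.00412), as were Slc4a11 and Aqp1. With Col3a1 taken out of the list Car3 was not called (-0.34, 0.0108). Car9 also followed the inner share, with a slope of 0.57, but was higher in BALB/cN. It was not called with the stromal list (0.46, 0.0283) or without the 3 corneas (0.56, 0.0138). It was called with the endothelial list (0.63, 0.00719) and with the stromal list without Col3a1 (0.56, 0.00966).

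In the monocarboxylate list 1 of 4 tested genes was called. Emb, embigin, a chaperone of lactate transporters, had 144, 141, 123 and 106 normalized reads in BALB/cN and 588, 518, 424 and 525 in C57BL/6N, an rlog difference of -1.28 (limma adjusted p = 2.14e-05). Bsg, basigin, the main chaperone of Slc16a1, held 15418, 11191, 13971 and 15714 reads in BALB/cN and 14786, 15060, 8169 and 8266 in C57BL/6N, lowest in the corneas of low inner share, and was not called (0.25, limma adjusted p = 0.411).

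The channel list gave 1 call among 7 tested genes. Scnn1a, the alpha subunit of the epithelial sodium channel, had 889, 1092, 1014 and 752 normalized reads in BALB/cN and 3221, 3255, 4000 and 3884 in C57BL/6N, without overlap (rlog difference -1.44, limma adjusted p = 1.12e-05). Of 13 cation-chloride cotransporters and their kinases 0 were called by limma and by voom, with 3 at an unadjusted p under 0.05 in limma. Of 6 other aquaporins 0 were called by either, with 1 at that level. How many of all genes reached that level in this fit was not counted. Oxsr1, a kinase that activates Slc12a2, differed by -0.23 (limma adjusted p = 0.0801), and its relative Stk39 by 0.09 (limma adjusted p = 0.879). Mip, the water channel of lens fibers, had 216 and 108 reads in BALB/cN replicates 1 and 4, the corneas of high lens transcripts, and at most 16.4 in any other.

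**Figure D5:**
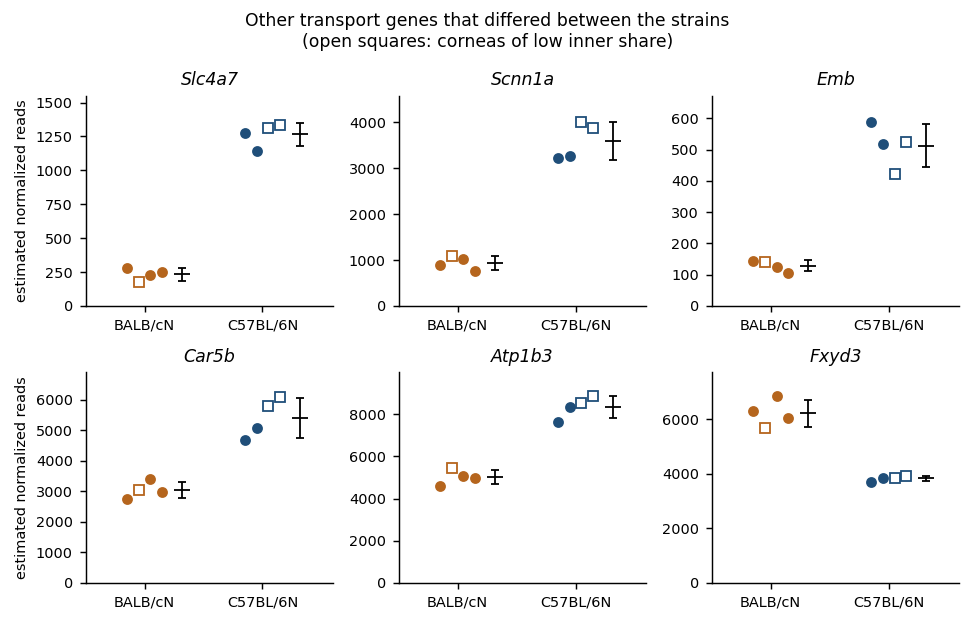
Estimated normalized reads (vertical axes, from 0) of the 6 other transport genes that passed the test between the strains, with 1 point per cornea and black bars for the mean ± SD of 4 corneas. Open squares are the corneas of low inner share. For all 6 genes the strains are separated, with BALB/cN lower for all but Fxyd3. The C57BL/6N open squares lie above the filled points of that strain for all but Emb, most clearly for Scnn1a and Car5b.

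Among 12691 protein-coding genes whose mean rlog was 5 or more, those whose deviations from the strain means were most like each member were searched over the 8 corneas. Peg3, Aqp1 and Loxl1 were most like Slc4a11 (Pearson's r of 0.998 to 0.999), and Wnt5a, Slc4a11 and Loxl1 were most like Aqp1 (0.998 to 0.999). Xpnpep2, Itga4 and Ogn stood nearest to Slc4a4 (0.995 to 0.996). For Atp1b1 they were Col8a1, which is a collagen of the endothelial basement membrane, Abat and Gpc4 (all 0.997), and for Slc16a1 Cxcl14, Pgm1 and Cacna1c (0.981 to 0.985). Esrp1, a splicing regulator of epithelia, was among the 3 nearest to both Slc12a2 (0.996) and Aqp5 (0.989), beside Mal and Slc23a4 for the former and Cltb and Nectin4 for the latter. Aqp3 was most like 4933415A04Rik, Krt14 and Vamp4 (0.974 to 0.982), and Kif5a and Calm3 were among the 3 nearest to Car2 (0.981 to 0.985). These correlations share the few libraries that stand apart.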

How the data were processed

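Strand-specific libraries of total RNA were sequenced for 4 corneas of each strain. The labels name no batch. Per the study's methods and the submitters' processing notes, the authors aligned reads to pseudo-genomes of each strain based on GRCm38 with TopHat2 2.1.1, counted them on exons of Ensembl genes with HTSeq 0.7.1, and used DESeq2 1.30. The deposited values are rlog values, log2 values with other scaling than counts, normalized for library size by the authors. No column was left unused (0).

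The strain comparison used limma 3.58.1 in R 4.3.3 (lmFit and eBayes, variance trend) over 25402 genes with a mean rlog of at least 0, with Benjamini-Hochberg adjustment and an adjusted p of at most 0.01. Each member was in addition tested by exact permutation of the corneas, two-sided, in scipy 1.17.1. Differences are BALB/cN minus C57BL/6N.

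Reads were estimated by inverting the rlog transformation, with constants started from gene means in part of the study's supplementary data and refined by the share of whole numbers. Of the estimates, 92.3% lay within 0.1 of a whole number at means of 4 to 60 reads, 70.8% at 1000 to 5000 and 24.8% above 5000, against 20.2% after a random fraction was added. PCR copies are not independent molecules. No pair of corneas of a strain agreed within sampling noise, with chi-square per gene of at least 10.1. The procedures were tested on simulated data.

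Positions and exons came from GENCODE vM21 (GRCm38), and the screen for near-identical copies used blastn 2.17.0. Of the 9 genes only Atp1b1 had one, its overlap with Nme7.

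The members, gene lists and alternatives were chosen with earlier results of these data known. Named genes were all members, called genes and partners of members in the pathway lists, Mip, marker genes needed beside a result, and the 3 genes most like each member. Car3, Car9 and Kif5a values were added after they were seen. A few genes that this rule names are not reported here. Chosen after the values were seen were the stromal list without Col3a1, leaving out BALB/cN replicates 1 and 4, and leaving out single corneas in the fits that account for the inner share.

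Corneas with the same replicate number were not treated as pairs, as their deviations from the strain means correlated at 0.305, -0.53, -0.203 and -0.454.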

Additional observations from a re-analysis of the deposited data

Results flagged for a closer look

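In 6 of 54 groups of 4 corneas, 1 cornea stood far outside the range of the remaining 3. The groups were taken over the members, the called pathway genes and the marker lists. Independent groups would give 2.7 by chance, but these share the same corneas, so the counts cannot be compared. BALB/cN replicate 2 accounted for 4 of the 6. It had already been set apart by its low inner share. Aqp1 and Atp1b1 followed the stromal list at Pearson's r of 0.99 and 0.98, so these 4 are not separate findings. The gap to the nearest cornea made up 0.920 of the range for Atp1b1 (10.16, next 10.91), 0.851 for Aqp1 (12.40, next 13.14), 0.984 for the stromal keratocytes list (12.03, next 13.54) and 0.887 for the corneal endothelium list (11.43, next 11.86). For Car2, C57BL/6N replicate 2 stood above the others (5.21, next 3.48), with a gap of 0.965 of the range. The photoreceptors list was higher in BALB/cN replicate 1 (3.52, next 3.17), with a gap of 0.965. The pair of low C57BL/6N corneas escapes this test, which finds only single corneas. No cause was tested.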

How the results depend on the processing

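The 95% intervals of all members except Slc12a2 held 0 with strain alone. Of 216 comparisons of a member's difference with an alternative, 174 kept direction and side of the threshold, and 20 of 24 alternatives called 0 members. Slc12a2 kept its sign in all 24. Genes called over the whole table moved from 1458 to 958 with median centring, 816 with the lens covariate, 2842 at an adjusted p of at most 0.05 (looser by construction), 2284 with the stromal covariate, 2391 with that covariate without Col3a1, 2457 with the endothelial covariate, 852 without the 3 corneas of low inner share and 447 without the 2 corneas of high lens and pigment transcripts. The last 2 settings have fewer corneas, and for the other settings the cause was not tested. Recalibration to an empirical null called 0 genes and 0 pathway genes, with 1730 genes at an unadjusted p under 0.05. With the replicate number as a block 554 genes, 0 members and 6 pathway genes were called, but the numbers did not pair the corneas. Pathway genes called without the 3 corneas again numbered 6, with Car3 in place of Car5b.

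Members called were 2 with the stromal covariate, 2 without the 3 corneas, 1 with the endothelial covariate and 1 with the stromal covariate without Col3a1. Slc4a11 turned to -0.06 with median centring, -0.04 with the lens covariate, -0.33 with the stromal covariate, -0.25 with it without Col3a1, -0.19 with the endothelial covariate, -0.44 without the 3 corneas and -0.10 without the 2 of high lens transcripts. Aqp1 turned to -0.38, -0.27, -0.19, -0.53 and -0.07 in the last 5 of these settings, and Atp1b1 to -0.24, -0.16, -0.10, -0.28 and -0.08 in the same 5 and -0.04 with the lens covariate. Slc4a4 turned to -0.06 with the stromal covariate and -0.11 without the 3 corneas, and Slc16a1 to 0.0018 with the lens covariate. Aqp3 turned to 0.10 and Aqp5 to 0.01 with quantile normalization, and Aqp3 also to 0.02 with the lens covariate, 0.03 with voom and 0.01 without the 2 corneas of high lens transcripts.

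Leaving out each cornea in turn called between 953 and 1163 genes, 0 members and 6 pathway genes. The differences ran from -0.20 to 0.22 for Slc4a11, -0.20 to 0.42 for Aqp1, -0.14 to 0.34 for Atp1b1, -0.17 to 0.14 for Slc16a1, -0.40 to 0.20 for Car2 and -0.06 to 0.01 for Aqp3. With the stromal covariate, leaving out each cornea called between 0 and 2 members, and without the 3 corneas between 0 and 1, with Slc4a11 between -0.47 and -0.40 and Aqp1 between -0.60 and -0.47 in the latter. Depth limits only Car2, which had 23.3 normalized reads or fewer in 7 of 8 corneas.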
